A study of Homo sapiens with 8 samples.

Results

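The mitosis genes described here are 35 genes whose products drive a cell through mitosis. They were chosen by name, with earlier results of these data known, and found by their symbol in a table of 31402 entries. All 35 were found, each on 1 entry. Of these, 34 entered the tests and NUSAP1 did not, because it has no value in Clone 2. The 34 are among 11843 genes that passed a filter of a mean of at least 1 FPKM (fragments scaled to the length of the transcript and to the size of the library) over the 8 libraries, and none of the 35 was lost to that filter.

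Total RNA was sequenced from KCL-22, a line of human chronic myeloid leukemia that carries the BCR-ABL fusion kinase, after its cells were tagged with the ClonTracer barcode library and selected with BCR-ABL inhibitors. Imatinib and nilotinib are catalytic inhibitors, which bind the ATP site of the kinase. GNF-2 is an allosteric inhibitor, which binds the myristate pocket. The series profiled subpopulations and single clones that took part in resistance. There are 4 clones, each grown from 1 sorted cell clone: Clones 1 and 2 came from the GNF-2 population, resist GNF-2 and never met a catalytic inhibitor; Clone 3 came from the imatinib population, resists imatinib and nilotinib and never met an allosteric inhibitor; Clone 4 came from the GNF-2 population and resists all 3 drugs. There are 3 resistant populations, selected for 27 days with imatinib (2.5 µM) or nilotinib (0.3 µM) or for 21 days with GNF-2 (2.5 µM). The reference is 1 vehicle population, kept in 0.1% DMSO for 7 days. The labels do not say whether drug was present when the clones were harvested, and drug and days in culture cannot be told apart between the resistant populations and vehicle. Separate cultures are not stated for libraries that share a group, so p-values measure only the spread between these libraries. Libraries that share a group differ in drug, in cell of origin or in kind (clone or population). Their spread mixes such differences with technical ones. FPKM summed to 493644 (Clone 4) to 579873 (Clone 1) per library, and a rough estimate of depth ran between 20200000 (Clone 4) and 39000000 (Clone 1) fragments.

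As background, entry into mitosis is driven by CDK1 bound to cyclins A and B, and the aurora and polo kinases then build the spindle. Kinetochores tie chromosomes to the spindle, the spindle checkpoint holds back the anaphase-promoting complex until every chromosome is attached, and CDC20 then directs that ubiquitin ligase to securin and the B cyclins. Most of these genes are transcribed late in the cell cycle, in G2 and mitosis, under the MuvB core complex, B-MYB (MYBL2) and FOXM1, so their level in a culture is commonly read as a mark of dividing cells. In bulk RNA, fewer cells in mitosis and less mitotic RNA per cell cannot be told apart.

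Because these genes are known to share promoter elements, the promoters were read from RefSeq (GRCh38.p14). There was 1 window per gene of 300 bases, 250 before to 50 after the start. An entry was found for 30 of the 35 members, and AURKA, BIRC5, TPX2, TTK and UBE2C were not matched. TTTGAA, the core of the cell cycle genes homology region where MuvB binds, stood on either strand in 21 of the 30 windows (70.0%), against 15.4% of all 27305 windows. Its variant TTTAAA, which reads the same on both strands, stood in 12 (40.0%) against 12.3%. At least 1 of the pair stood in 25 (83.3%) against 24.3%. CCAAT, the box bound by NF-Y, stood on either strand in 23 (76.7%) against 35.7%, and at least 2 copies stood in 15 (50.0%) against 11.3%. Both TTTGAA and CCAAT stood in 17 (56.7%) against 6.08% of all windows. These are matches of letters and not measured binding. The shares describe a list of genes already known for such elements, and any link to the levels in these libraries was not tested.

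The 250 bases before the start are shown for the 4 members with the highest mean FPKM among those with an entry, 5′ to 3′ along the gene, with matches to the CCAAT box, to TTTGAA and to its variant TTTAAA on either strand in capitals. They are PTTG1 (chr5:160421605-160421854, plus strand), TOP2A (chr17:40417897-40418146, minus strand), MAD2L1 (chr4:120066849-120067098, minus strand) and NUSAP1 (chr15:41332631-41332880, plus strand), all on GRCh38.p14.
PTTG1: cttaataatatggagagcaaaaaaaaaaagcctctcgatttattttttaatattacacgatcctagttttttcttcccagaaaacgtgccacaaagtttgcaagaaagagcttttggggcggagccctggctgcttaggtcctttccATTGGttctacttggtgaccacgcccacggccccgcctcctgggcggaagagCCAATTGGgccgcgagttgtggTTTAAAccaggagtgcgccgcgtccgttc
TOP2A: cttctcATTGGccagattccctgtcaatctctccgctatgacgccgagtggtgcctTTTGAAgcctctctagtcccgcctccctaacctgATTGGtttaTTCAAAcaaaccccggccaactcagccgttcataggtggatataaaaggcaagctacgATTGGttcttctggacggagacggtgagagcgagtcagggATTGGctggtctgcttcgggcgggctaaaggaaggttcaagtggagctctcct
MAD2L1: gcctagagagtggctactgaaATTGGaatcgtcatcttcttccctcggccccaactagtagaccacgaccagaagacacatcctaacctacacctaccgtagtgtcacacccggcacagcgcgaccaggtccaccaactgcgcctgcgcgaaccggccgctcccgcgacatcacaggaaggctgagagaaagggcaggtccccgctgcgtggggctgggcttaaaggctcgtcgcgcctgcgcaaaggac
NUSAP1: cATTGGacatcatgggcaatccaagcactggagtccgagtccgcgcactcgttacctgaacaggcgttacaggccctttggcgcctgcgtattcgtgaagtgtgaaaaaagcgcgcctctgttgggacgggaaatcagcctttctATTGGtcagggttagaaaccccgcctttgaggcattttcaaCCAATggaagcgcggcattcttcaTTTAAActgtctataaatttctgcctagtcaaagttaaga
PTTG1 holds TTTAAA 29 bases before the start, and 2 of its 3 CCAAT boxes overlap on opposite strands as CCAATTGG. TOP2A holds TTTGAA on each strand and 4 inverted CCAAT boxes. MAD2L1 has 1 inverted CCAAT box in the printed stretch, and NUSAP1 has 3 CCAAT boxes and TTTAAA. In MAD2L1 and NUSAP1 a TTTGAA lies after the start, outside the printed bases.

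Mitosis genes were lowest in the clones, intermediate in the resistant populations and highest in vehicle. Vehicle was the highest of the 8 libraries for 33 of the 35, against 13.9% of all tested genes. The exceptions were CENPF, highest in Clone 2, and CENPE, where the imatinib population and vehicle both had 15.4 FPKM. Clone 4 was the lowest library for 27 members, against 19.1% of all tested genes, and Clone 1 for the other 8, with CDC25C listed at 0 in both. CDC25C has no ratio of the highest to the lowest library, because its lowest value is 0. Over the other members that ratio had a median of 3.07. It was smallest for BIRC5, which encodes survivin of the chromosomal passenger complex, at 1.59, and largest for MKI67, which encodes the Ki-67 antigen that coats mitotic chromosomes, at 5.55.

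**Figure D1:**
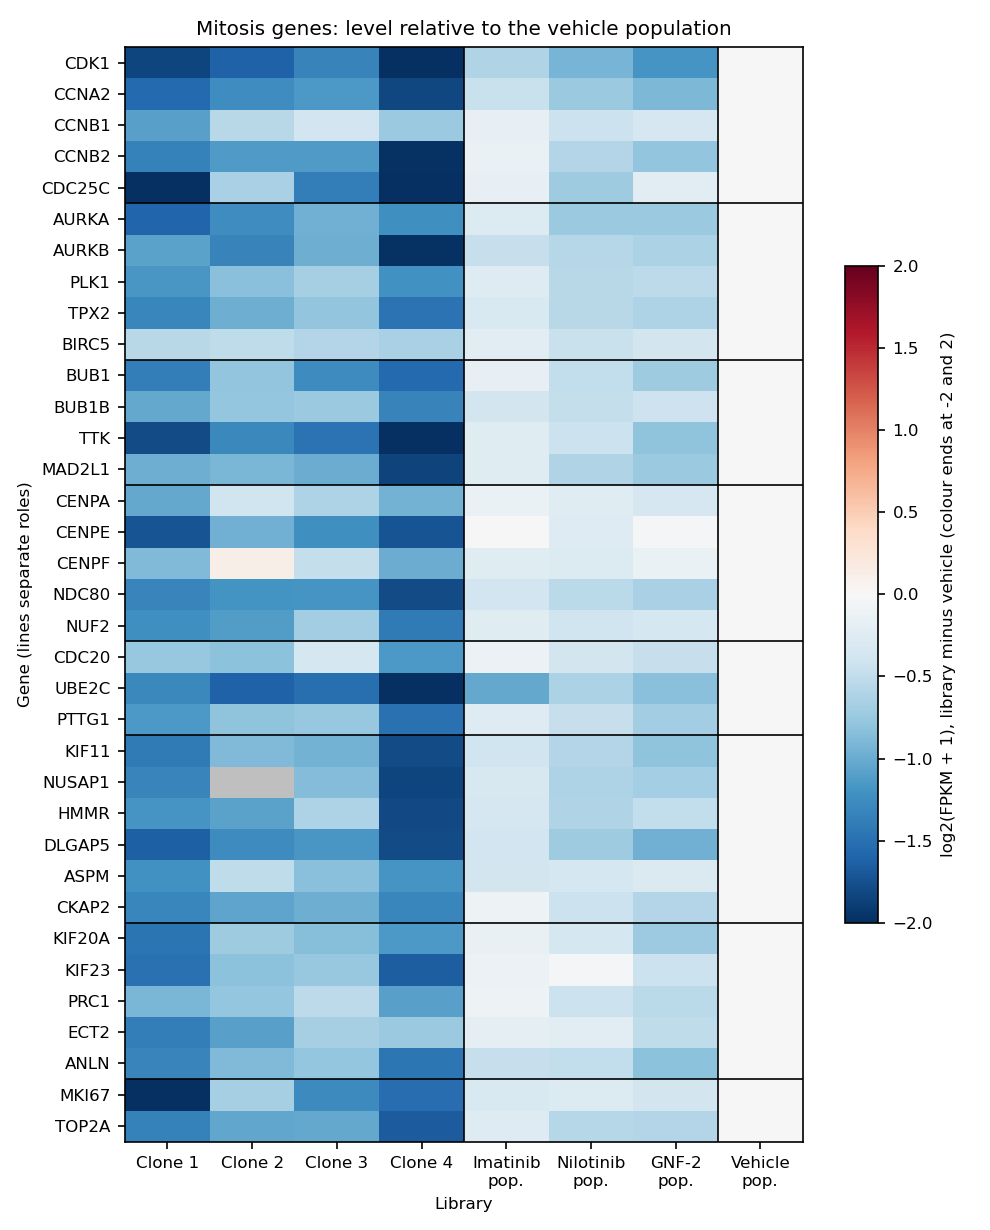
Level of each of the 35 mitosis genes in each library relative to the vehicle population, as a difference of log2(FPKM + 1) (colour, ends at -2 and 2), with genes down the page in 8 groups by role and clones, resistant populations and vehicle across it; grey marks NUSAP1 in Clone 2, which has no value. Nearly every square is blue, the clones are darker than the populations, and CENPF in Clone 2 is the 1 clone square above vehicle.

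The 4 clones were set against the 3 resistant populations, each population counting equally. The groups are not matched by origin: Clones 1, 2 and 4 came from the GNF-2 population, Clone 3 from the imatinib population and none from the nilotinib population. Of the 3 populations, the GNF-2 one had the lowest median for these genes. All 34 tested mitosis genes averaged lower in the clones, with a median difference of -0.68 on log2(FPKM + 1), against -0.08 for all 11843 tested genes, of which 6834 were lower. With limma at an adjusted p of 0.05 over all genes, 6 of the 34 fell and none rose, against 7.46% of all genes called (684 or 5.78% lower and 199 or 1.68% higher). At an unadjusted p below 0.05, 31 members were lower and none higher, against 27.1% of all genes. Every clone lay below every resistant population for 27 of the 34, against 18.1% of all genes.

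The kinetochore genes held 3 of the 6 calls, with a median of -0.78 over 5 members. CENPE (chr4:104026963-104119566, GRCh37) encodes the kinesin that carries chromosomes to the spindle equator. It had 3.94, 7.39, 6.03 and 3.93 FPKM in Clones 1 to 4, against 15.4, 12.7 and 15.2 FPKM in the imatinib, nilotinib and GNF-2 populations. The clones did not overlap the populations, and the populations lay close to vehicle at 15.4 FPKM. CENPE averaged 5.32 ± 1.70 FPKM in clones (SD, n = 4) and 14.4 ± 1.51 FPKM in resistant populations (SD, n = 3), a difference of -1.32 on log2(FPKM + 1) (SE 0.22, limma adjusted p = 0.0176).

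NDC80 and NUF2 encode the paired subunits of the complex that grips spindle microtubules at the kinetochore. NDC80 (chr18:2571510-2616634, GRCh37) had 13.2, 14.4, 14.6 and 9.24 FPKM in Clones 1 to 4, against 25.9, 23.3 and 21.4 FPKM in the imatinib, nilotinib and GNF-2 populations and 34.3 FPKM in vehicle. The 3 kinds of library formed 3 steps with no overlap. NDC80 differed by -0.84 (SE 0.17, limma adjusted p = 0.0338). NUF2 (chr1:163291723-163325553, GRCh37) had 17.6, 19.1, 25.6 and 15.2 FPKM in the clones, against 35.4, 31.9 and 33.1 FPKM in the populations and 42.3 FPKM in vehicle. Clone 3, the highest of the clones, still lay below every population. NUF2 differed by -0.78 (SE 0.17, limma adjusted p = 0.0402). CENPA, the centromeric histone, did not pass the test, and neither did CENPF, a large kinetochore protein, which differed by -0.34 (limma adjusted p = 0.44). CENPF had 27.6 FPKM in Clone 2, above the 25.3 FPKM of vehicle, and 13.3, 17.9 and 12.2 FPKM in the other clones.

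Among the 4 spindle checkpoint genes (median -0.72), TTK, the kinase MPS1 that starts the checkpoint signal, fell. TTK (chr6:80714322-80752244, GRCh37) had 15.0, 21.6, 19.0 and 9.90 FPKM in Clones 1 to 4, against 45.8, 40.0 and 30.6 FPKM in the imatinib, nilotinib and GNF-2 populations and 54.4 FPKM in vehicle. The groups did not overlap, and vehicle was 5.50 times Clone 4. TTK differed by -1.23 (SE 0.26, limma adjusted p = 0.0364). BUB1, BUB1B (BubR1) and MAD2L1 (MAD2), which carry the checkpoint signal, were also lower in every clone than in any resistant population but did not pass. MAD2L1 had 66.8, 70.4, 66.3 and 36.0 FPKM in Clones 1 to 4, so that Clone 4 stood well below the other clones.

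TOP2A (chr17:38544773-38574202, GRCh37), the topoisomerase that untangles sister chromosomes, had 55.1, 68.7, 68.9 and 44.0 FPKM in Clones 1 to 4, against 119, 95.5 and 93.6 FPKM in the imatinib, nilotinib and GNF-2 populations and 142 FPKM in vehicle. No clone reached the lowest population. TOP2A differed by -0.80 (SE 0.19, limma adjusted p = 0.0444). CKAP2 (chr13:53029495-53050763, GRCh37), a microtubule protein of the spindle, had 29.3, 35.2, 36.9 and 29.5 FPKM in the clones, against 69.2, 54.6 and 48.8 FPKM in the populations and 74.0 FPKM in vehicle. Its clones lay within a narrow range below all other libraries. CKAP2 differed by -0.79 (SE 0.16, limma adjusted p = 0.0294). The spindle motor and microtubule genes had a median of -0.69 over 5 tested members, among them KIF11, the motor that separates spindle poles. NUSAP1, untested, had 44.2, 60.6 and 30.6 FPKM in Clones 1, 3 and 4, all below the 69.5 to 89.2 FPKM of the resistant populations.

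**Figure D2:**
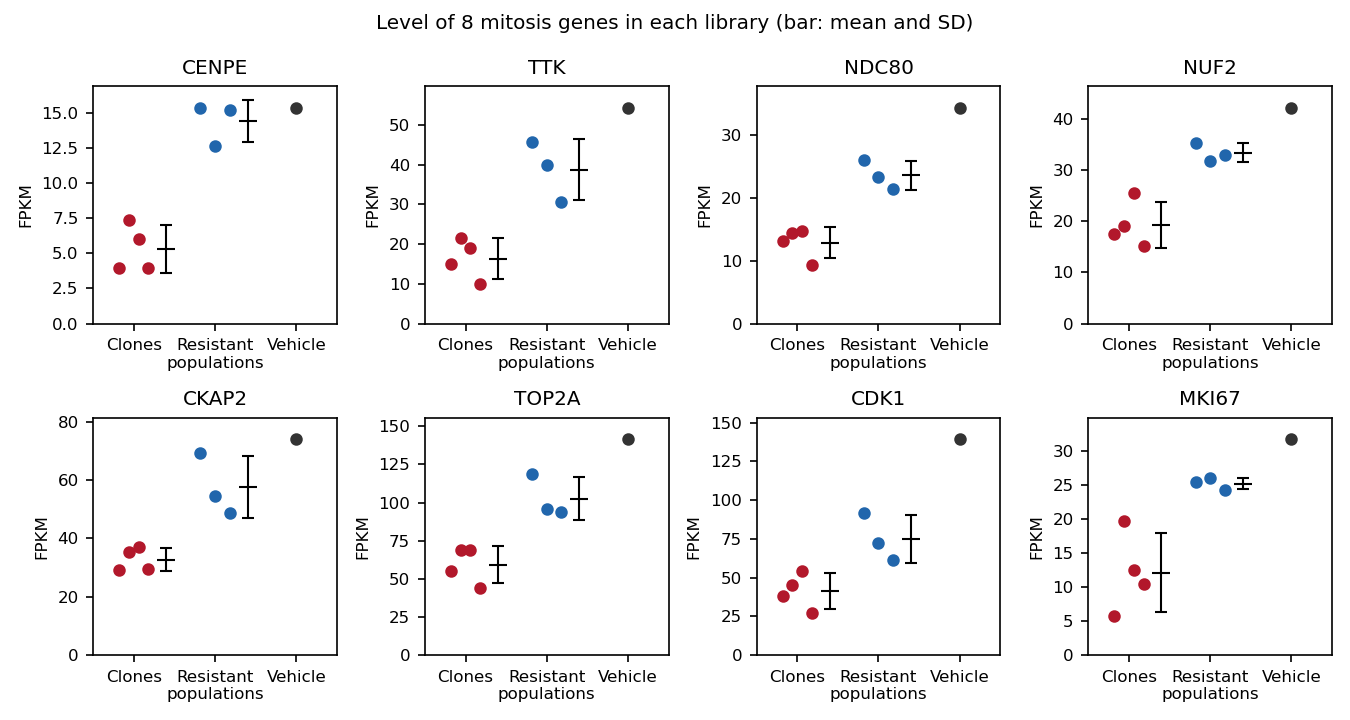
FPKM of 8 mitosis genes in each library, with clones, resistant populations and vehicle along the x axis, 1 point per library, and bars for the mean and SD of the 4 clones and of the 3 resistant populations. The 8 are the 6 called genes with CDK1 and MKI67, which were picked from the members that did not pass the test. All 8 panels have every clone below every resistant population, which held for 27 of the 34 tested members.

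Some of the larger differences did not pass the test. MKI67 (chr10:129894925-129924468, GRCh37) had 5.73, 19.6, 12.5 and 10.4 FPKM in Clones 1 to 4, against 25.4, 26.0 and 24.3 FPKM in the imatinib, nilotinib and GNF-2 populations and 31.8 FPKM in vehicle. The clones lay below the populations but differed widely among themselves. MKI67 differed by -1.11 (limma adjusted p = 0.0839). CDC25C, the phosphatase that activates CDK1, was listed at 0 in Clones 1 and 4 and had 6.58 and 3.54 FPKM in Clones 2 and 3, against 9.58, 6.22 and 9.17 FPKM in the populations and 10.9 FPKM in vehicle. A value listed at 0 can be a failed estimate, and the difference of -1.92 (SE 0.74, limma adjusted p = 0.147) rests on those values. KIF23, a motor of the central spindle in cytokinesis, differed by -0.98 (limma adjusted p = 0.0587), and the 5 midzone and cytokinesis genes had a median of -0.63 with none called.

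CDK1 and its partners had the lowest role median among those with no call, -0.88 over 5 genes. CDK1 (chr10:62538089-62554610, GRCh37) had 38.3, 45.0, 54.5 and 27.1 FPKM in Clones 1 to 4, against 91.8, 72.5 and 61.2 FPKM in the imatinib, nilotinib and GNF-2 populations and 139 FPKM in vehicle. The groups did not overlap. CDK1 differed by -0.88 (limma adjusted p = 0.0704) and CCNB2, a B cyclin, by -0.89 (limma adjusted p = 0.0683). CCNB1, the main B cyclin, differed by -0.38 (limma adjusted p = 0.212), and Clone 3 at 53.4 FPKM overlapped the populations at 51.8 to 62.2 FPKM. The aurora and polo kinases with TPX2 and BIRC5 had a median of -0.64 with none called, BIRC5 having the smallest difference of all members, -0.24 (limma adjusted p = 0.187). UBE2C, CDC20 and PTTG1 (securin), which act at anaphase, had a median of -0.58 with none called, and UBE2C, a ubiquitin-conjugating enzyme, differed by -0.78 (limma adjusted p = 0.0511). PTTG1 has near-identical copies in the genome, so its FPKM is uncertain.

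With each clone set against its own population of origin (origin as a block, an alternative chosen after seeing the data), limma called none of the 34 and 13 genes over the table, and all 34 were lower with a median of -0.63. The 6 calls also depended on single libraries: none held without Clone 1, without the imatinib, nilotinib or GNF-2 population or with the resistance group as a covariate, 3 members were called without Clone 4, 10 without Clone 2, 2 after rescaling the libraries by median ratios and 3 with no filter on level. The direction did not: every tested member remained lower in the clones under each of these, although rescaling moved the median of all genes to 0.03 and the genes called to 392 higher and 473 lower.

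**Figure D3:**
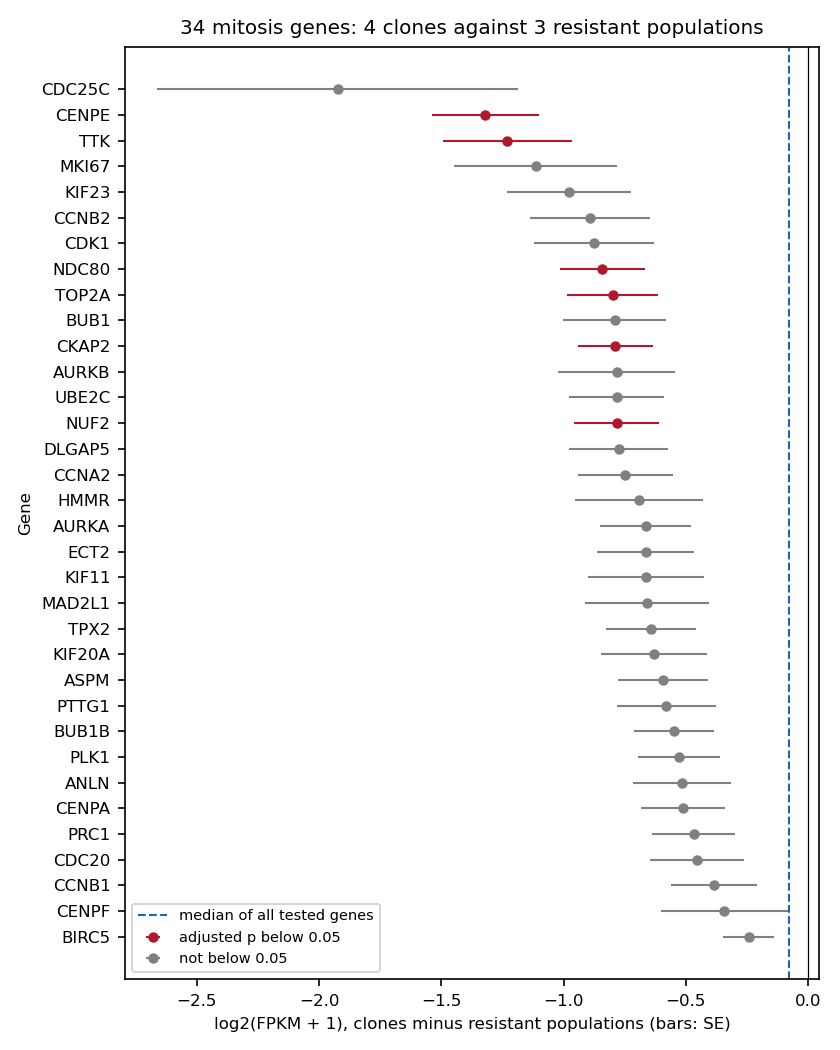
Difference on log2(FPKM + 1), clones minus resistant populations, for the 34 tested mitosis genes (points; bars are SE), with genes past an adjusted p of 0.05 in red and the median of all tested genes as a dashed line. Every point lies below that median of -0.08, between -1.92 for CDC25C and -0.24 for BIRC5.

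Each clone was also set beside the population it came from, with 1 library on each side and so no test; members are counted where they were at least 1.5-fold apart on log2(FPKM + 1) with at least 5 FPKM in the higher library, and none was higher by that margin. In Clone 4, 28 of the 34 were lower than in the GNF-2 population by that margin, against 28.6% of genes apart in either direction, and the median member stood at 0.536 of the population. In Clone 1, 25 were lower than in the GNF-2 population (13 after rescaling by median ratios), against 25.3%, with the median at 0.626. In Clone 2, 5 were lower than in the GNF-2 population, fewer in proportion than the 25.2% of all genes, with the median at 0.786. In Clone 3, 16 were lower than in the imatinib population, against 30.5%, with the median at 0.694. Clone 2 thus stayed nearest to its source population, and 32 of its 34 members were lower in sign.

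The resistant populations were set against vehicle to compare selected with unselected cultures. All 34 members averaged lower in the resistant populations, with a median of -0.45, against 0.08 for all tested genes. With limma, none passed an adjusted p of 0.05, where 0.0591% of all genes did, and 3 had an unadjusted p below 0.05, against 3.90% of all genes. Vehicle lay above all 3 populations for 33 of the 34, against 21.7% of all genes. CDK1 averaged 75.2 ± 15.5 FPKM in the resistant populations (SD, n = 3) and had 139 FPKM in vehicle, a difference of -0.90 (SE 0.37, limma adjusted p = 0.963). UBE2C had 41.7, 55.0 and 47.7 FPKM in the imatinib, nilotinib and GNF-2 populations, against 86.0 FPKM in vehicle, a difference of -0.83 (SE 0.29, limma adjusted p = 0.963). CCNA2, the A cyclin, and DLGAP5, a spindle assembly protein, differed by -0.70 (SE 0.29) and -0.69 (SE 0.31). KIF23 and CENPE had the smallest differences, -0.20 and -0.09 (limma adjusted p = 0.977 and 0.991). Vehicle is 1 library, and its spread was taken from the other groups.

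The populations shared an order of levels. The GNF-2 population was below the nilotinib population, that below the imatinib population and that below vehicle for 22 of the 35 members, against 7.41% of all tested genes. PTTG1 had 166, 144 and 122 FPKM in the imatinib, nilotinib and GNF-2 populations, against 199 FPKM in vehicle. CENPF and NUF2 were not in this order, with 23.0 and 33.1 FPKM in the GNF-2 population, above 20.8 and 31.9 FPKM in the nilotinib population. The imatinib population had 2 members at least 1.5-fold below vehicle, against 8.53% of genes apart in either direction, and its median member stood at 0.841 of vehicle. With nilotinib 9 members were that far below (15 after rescaling by median ratios), against 14.0% of genes, and the median was 0.715. With GNF-2 they numbered 18, against 22.7%, and the median was 0.664. Each drug has 1 population, so these steps have no replicate check.

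Libraries resistant to the catalytic inhibitors (the imatinib and nilotinib populations and Clone 3) were set against those resistant to GNF-2 (the GNF-2 population and Clones 1 and 2), which asked whether the kind of inhibitor mattered. In the catalytic-resistant libraries 33 of the 34 averaged higher than in the GNF-2-resistant ones, with a median of 0.40, against -0.01 for all genes. With limma, none passed an adjusted p of 0.05, where 0.0338% of all genes did, and 2 had an unadjusted p below 0.05, against 4.87%. The groups did not overlap for 3 members, all higher. Of all 11843 tested genes, 483 (4.08%) were higher without overlap and 808 were lower without overlap. CDC25C differed by 0.72 (SE 0.88, limma adjusted p = 0.885) and ECT2, which activates RhoA for cytokinesis, by 0.64 (SE 0.26, limma adjusted p = 0.846). KIF23 and TTK differed by 0.61 (SE 0.32) and 0.58 (SE 0.39), while CENPF at -0.03 and BIRC5 at 0.07 had the smallest differences. The first side holds 2 populations and 1 clone and the second 1 population and 2 clones; with clone against population as a covariate the median was 0.25 and 30 of the 34 were higher. Without Clone 1, CDC25C differed by -0.32.

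The comparisons of both kinds of resistance with vehicle share the 1 vehicle library, and all 34 members averaged lower than vehicle in each. In the GNF-2-resistant libraries the median was -0.97, against 0.04 for all genes; limma called none at an adjusted p of 0.05, where 0.0929% of all genes passed, and 22 had an unadjusted p below 0.05, against 11.1%. No GNF-2-resistant library reached vehicle for 33 of the 34, against 26.2% of all genes. CDK1 averaged 48.1 ± 11.8 FPKM in the GNF-2-resistant libraries (SD, n = 3) and had 139 FPKM in vehicle, a difference of -1.54 (SE 0.36, limma adjusted p = 0.420). CDC25C differed by -1.48 (limma adjusted p = 0.638), a value that rests on the 0 listed in Clone 1 and was -0.43 without that library. TTK and DLGAP5 differed by -1.30 and -1.29 (limma adjusted p = 0.450 and 0.426), and BIRC5 and CENPF by -0.48 and -0.30 (limma adjusted p = 0.460 and 0.758). In the catalytic-resistant libraries the median was -0.54, against 0.02 for all genes; limma called none, where 0.0338% of all genes passed, and 2 had an unadjusted p below 0.05, against 2.69%. No catalytic-resistant library reached vehicle for 33 of the 34, against 21.2% of all genes. UBE2C differed by -1.06 (SE 0.40) and CDK1 by -0.96 (SE 0.36), CCNA2 and DLGAP5 by -0.78 and -0.76, and KIF23 and CDC20 by -0.30 and -0.28. With clone against population as a covariate the medians were -0.60 for the GNF-2-resistant and -0.38 for the catalytic-resistant libraries.

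Other genes of the cell cycle were followed in lists, to see how far the difference reached. The lists were chosen with earlier results of these data known, so they are no independent check on the members. Of 62 further mitosis genes, 18 fell in the clones relative to the resistant populations by limma at an adjusted p of 0.05 and none rose, against 5.78% of all genes lower, with a median of -0.60 and 59 lower in sign. As with the 34, these calls depended on the fit: of the 62, none was called lower with origin as a block, with the resistance group as a covariate or without the imatinib or nilotinib population, 1 without Clone 1 or the GNF-2 population, 4 without Clone 4 and 5 after rescaling by median ratios, while 56 to 60 were lower in sign. Among the 18, SPAG5 (astrin, a spindle protein) differed by -1.25 (limma adjusted p = 0.0134), HJURP, the chaperone that loads CENPA, by -1.26 (limma adjusted p = 0.0358) and BORA, an activator of aurora A, by -1.07 (limma adjusted p = 0.0351). KIF2C, a motor that takes microtubules apart, and SGOL1 (shugoshin), which guards sister cohesion, each differed by -0.95 (limma adjusted p = 0.0372 and 0.0433), and CDCA2, which brings a phosphatase to chromatin, by -0.98 (limma adjusted p = 0.0344). The 43 genes of DNA replication and S phase had a median of -0.10, with 26 lower in sign, and of 0.01 with 19 lower after rescaling by median ratios. None of them fell and 2 rose, against 1.68% of all genes higher: POLA1, the catalytic subunit of DNA polymerase alpha, by 0.92 (limma adjusted p = 0.0372) and UHRF1, which maintains DNA methylation at replication, by 0.80 (limma adjusted p = 0.0462). Of 14 genes of the anaphase-promoting complex, the ubiquitin ligase of anaphase, counting its activator FZR1, 2 fell, against 5.78% of all genes lower. ANAPC4 fell by 0.76 (limma adjusted p = 0.0225) and CDC23 fell by 0.48 (limma adjusted p = 0.0387), with a list median of -0.08 (0.03 after rescaling). ANAPC10 had 20.7 and 21.6 FPKM in vehicle and the imatinib population and was listed at 0 in all other libraries, which can be a failed estimate. No replication gene was called when Clone 1, 2 or 4 or any 1 of the populations was left out, and no subunit when Clone 1 or any 1 of the populations was.

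The 24 transcription regulators of the mitotic program had a median of -0.03 (0.07 after rescaling by median ratios), and 2 of the 24 (8.33%) were called, near the 7.46% of all genes. NFYA, a subunit of NF-Y, rose by 0.64 (limma adjusted p = 0.0496), and RBL2 (p130), which joins MuvB in resting cells, fell by 0.53 (limma adjusted p = 0.0484). No regulator was called when Clone 1, Clone 4 or any 1 of the populations was left out. The same held with the resistance group as a covariate and with origin as a block, and none was called lower after rescaling. FOXM1 had 21.2, 26.0, 19.2 and 20.2 FPKM in Clones 1 to 4, against 25.5, 22.8 and 21.9 FPKM in the imatinib, nilotinib and GNF-2 populations and 34.6 FPKM in vehicle. Clones and populations overlapped for FOXM1, with a difference of -0.11 (limma adjusted p = 0.63). MYBL2 had 34.9, 40.1, 38.0 and 22.4 FPKM in the clones, against 48.6, 39.0 and 48.2 FPKM in the populations and 65.8 FPKM in vehicle, a difference of -0.44 (limma adjusted p = 0.227). CDKN1A (p21), an inhibitor of cyclin-dependent kinases, had 14.2, 6.30, 48.3 and 36.0 FPKM in Clones 1 to 4, against 21.0, 16.2 and 17.7 FPKM in the populations and 55.6 FPKM in vehicle. Its clones lay on both sides of the populations, with a difference of 0.14 (limma adjusted p = 0.90).

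**Figure D4:**
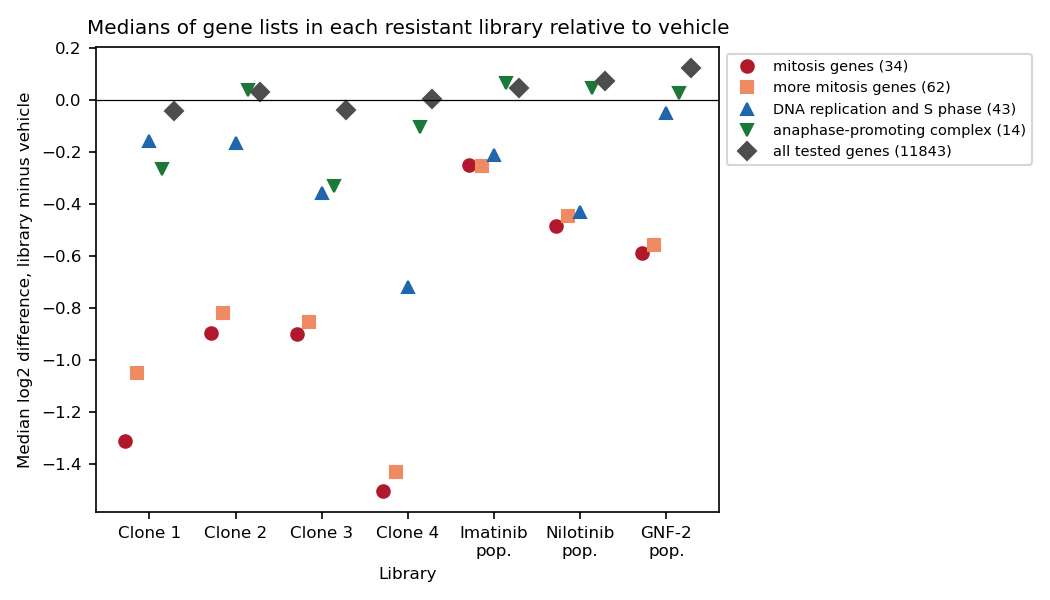
Median difference on log2(FPKM + 1) from vehicle (y axis) of 4 gene lists and of all tested genes in each resistant library (x axis), with the number of genes of each in the legend. Both mitosis lists lie lowest in every clone, at -1.50 and -1.43 in Clone 4, while DNA replication genes lie at -0.16 to -0.72 in the clones.

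Relative to vehicle, the median member stood at -1.31, -0.90, -0.90 and -1.50 on the log2 scale in Clones 1 to 4. The further mitosis genes stood at -1.05, -0.82, -0.85 and -1.43, and the DNA replication genes at -0.16, -0.17, -0.36 and -0.72. In the imatinib and nilotinib populations the gap between mitosis and replication genes was small, with medians of -0.25 and -0.48 for the 34 mitosis genes and -0.21 and -0.43 for the replication genes. In the GNF-2 population it was wider, -0.59 for the mitosis genes and -0.05 for the replication genes. The difference between the lists was not tested.

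Some properties of the libraries moved with these levels, and their part in the result was not tested. The summed FPKM of ribosomal protein genes was 69448, 41497, 59618 and 35930 in Clones 1 to 4, against 43236 to 46569 in the resistant populations and 37942 in vehicle. Summed FPKM of 16 histone genes was 200.8 in Clone 4, against 53.2 in vehicle and 69.1 to 91.9 in the others. HIST1H2BK alone held 108 FPKM of the Clone 4 sum, against 14.3 FPKM in vehicle. By contrast, HIST1H3B and HIST1H4C were at most 1.67 and 3.33 FPKM in any library, so the sum does not stand for histone genes at large. Between clones and resistant populations, limma at an adjusted p of 0.05 called none of 22 ribosomal protein genes (median 0.12, none at an unadjusted p below 0.05) and 1 of 8 histone genes (median 0.36), the linker histone HIST1H1C, which fell by 0.70. By transcript length, the median difference of clones from populations was -0.75 for the 17 members of up to 3152 bases and -0.66 for the 17 longer ones, against -0.04 and -0.10 for all tested genes of those lengths. Of 13 myeloid progenitor markers, 5 had at least 1 FPKM in every library, among them GATA2 at 145 to 287 FPKM, while MPO and KIT were below 1 FPKM in all; their summed FPKM was 331 to 507 in clones, 429 to 497 in resistant populations and 625 in vehicle. Of the 11 of these markers that were tested, 8 were lower and 3 higher in the clones relative to the populations, and 1 (9.09%, near the 7.46% of all genes) was called: PTPRC (CD45), which leukocytes carry, fell by 1.27 (limma adjusted p = 0.0307). Neither PTPRC nor HIST1H1C was called when Clone 1 or any 1 of the populations was left out. Both calls were also lost with the resistance group as a covariate and with origin as a block, and that of HIST1H1C after rescaling by median ratios. Of 18 markers of other cell types, 11 stayed below 1 FPKM in all libraries, and HBB, KRT19 and MS4A1, which are among those 11, were at 0 in all. COL1A2 and PECAM1 passed 1 FPKM only in Clone 2, at 4.62 and 1.92 FPKM. The sum of the 18 was 99.3 to 308 FPKM, which NCAM1, CD79A, KRT18, KRT8 and CD3D carried. These 5 had a median difference of 0.57 between clones and populations with none called. The keratins KRT8 and KRT18, which epithelial cells carry, were higher in Clones 1 to 3 but not in Clone 4, where most mitosis genes were lowest. KRT8 had 22.8, 43.5, 25.5 and 9.88 FPKM in Clones 1 to 4, against 9.38 to 11.2 FPKM in the populations and 11.0 FPKM in vehicle, a difference of 1.05 (limma adjusted p = 0.157). KRT18 had 74.7, 81.2, 56.5 and 23.7 FPKM in the clones, against 29.9 to 32.6 FPKM in the populations and 32.2 FPKM in vehicle, a difference of 0.75 (limma adjusted p = 0.263). The epithelial marker EPCAM was at most 0.312 FPKM in every library.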

How the data were processed

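Values are FPKM deposited by the authors, 1 per gene and library, made with TopHat 1.3 and Cufflinks 1.3 on GRCh37 per the submitters' processing notes. The header names no unit, and FPKM was taken from the tool and the values, which are not whole numbers. Depth, for want of read counts, was estimated roughly from the smallest steps of FPKM times length over 368 intronless genes. Of 31402 entries, 70 lacked a value in a library and were left out. Starts are 1 above the deposited ones, which match RefSeq gene lengths when counted from 0.

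On log2(FPKM + 1), limma 3.58.1 (R 4.3.3) fitted 1 mean per kind of library (5 residual degrees of freedom) or per resistance group (4) over all 8 libraries, with a variance trend. The tests took 11843 genes with a mean of at least 1 FPKM and called an adjusted p of 0.05 (Benjamini-Hochberg over all genes, two-sided). Fold changes on this scale understate the change of low genes. The script recovered known changes in simulated data, which had independent noise for each gene and no shift shared by the genes of a library. The planted changes were larger than the median difference of the members, so the simulation does not show how reliable the calls here are.

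The members and lists were chosen with earlier results of these data known. Named genes were the members past the threshold, otherwise the 4 largest and 2 smallest differences in a comparison, up to 6 called genes of each other list, and FOXM1, MYBL2 and CDKN1A; other members were named after their values were seen. Alternatives were other pseudocounts, filters, scalings, variance models and covariates, leaving out each replicate and, chosen after seeing the data, removing each library's length trend and fitting population of origin as a block. Lengths came from GENCODE release 29 for 95.7% of tested genes. Figures used Python 3.11.15, pandas 2.3.3 and matplotlib 3.10.9.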

Additional observations from a re-analysis of the deposited data

Results flagged for a closer look

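Among the 4 clones, MAD2L1, which encodes the checkpoint protein MAD2, had 36.0 FPKM in Clone 4, far from the 66.8, 70.4 and 66.3 FPKM of Clones 1 to 3. The gap, as a share of the clones' whole range, passed Dixon's 95% critical value for 4 samples. Of the 34 members tested in this way it was the only one past that value, and chance gives about 1 in 20.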

How the results depend on the processing

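Between clones and resistant populations, the number of mitosis genes called ran between 0 and 10 when 1 library was left out, and was 3 with no filter, 2 with median-ratio scaling, 0 with the resistance group as a covariate and 0 with population of origin as a block, a setting chosen after seeing the data. At a margin of 2-fold, members lower than the reference library numbered 4 in Clone 1, 0 in Clone 2, 4 in Clone 3, 14 in Clone 4, and 1, 0 and 1 under imatinib, nilotinib and GNF-2; with median-ratio scaling the 1.5-fold count was 13 in Clone 1 and 15 in the nilotinib population. Between catalytic-resistant and GNF-2-resistant libraries the sign of some small differences turned: BIRC5 was -0.0076 with clone against population as a covariate and ran between -0.036 (without the imatinib population) and 0.15 (without Clone 3) when 1 library was left out, CENPF was 0.04 without Clone 3, 0.05 without the GNF-2 population and 0.17 without Clone 2, and CDC25C ran between -0.32 (without Clone 1) and 1.35 (without the GNF-2 population). The cause was not tested. The labels give the libraries no shared replicate numbers, so origin is the only pairing that was fitted. It left 3 residual degrees of freedom. Depth is known only roughly, so counting error has no interval.

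Over all tested genes, calls ran between 128 and 1086 for clones against resistant populations when 1 library was left out, against 883 with all, and numbered 238 with the covariate and 13 with origin as a block. Leaving out 1 library gave 3 to 20 calls for resistant populations against vehicle (7 with all), 1 to 10 for catalytic-resistant against GNF-2-resistant (4 with all), 1 to 13 for GNF-2-resistant against vehicle (11 with all) and 0 for catalytic-resistant against vehicle (4 with all). With no filter, calls against vehicle numbered 82 for the resistant populations, 79 for the GNF-2-resistant and 59 for the catalytic-resistant libraries; with genes above 0 in all libraries they numbered 0 in each.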
